A study of Mus musculus with 2 samples.

Results

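The genes described here are 9 mouse genes of efferocytosis and scavenging, Mertk, Axl, Gas6, Pros1, Stab1, Msr1, Trem2, Gpnmb and Cd163, chosen by name out of the 27031 genes of a single-cell count table. MC38 cells, a colon carcinoma line of C57BL/6 origin, were implanted under the skin of female C57BL/6 mice aged 6 to 8 weeks, and live CD45+ leukocytes were sorted from the tumors on day 13. Control mice received vehicle and treated mice telmisartan, a blocker of the angiotensin II type 1 receptor, at 5 mg/kg by daily gavage from implantation. Cells of 5 mice were pooled in each group, labelled with Sample Tag 1 for control or Sample Tag 2 for telmisartan, and captured together in 1 BD Rhapsody run. Each group was therefore 1 pool. The difference between groups had no replicate check, the spread between mice was not measured, and each interval given below is a 95% interval that covers counting error only.

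Efferocytosis is the clearance of dying cells by phagocytes, which recognise phosphatidylserine on the dying cell through receptors or through soluble bridging proteins. The TAM receptors Mertk and Axl bind the bridging ligand Gas6, and Mertk also binds protein S, the product of Pros1. Scavenger receptors take up modified lipoproteins, cell debris and other polyanionic ligands, and tumor macrophages are known to carry many of them.

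After filtering, 4535 control and 4434 telmisartan cells remained, with 41591125 and 30921742 UMIs, which are counts of distinct captured transcripts. Most were macrophage-like, with 4053 control and 3999 telmisartan cells, beside 660 dendritic-like, 186 T-like and 71 neutrophil-like cells. The macrophage-like label was given to clusters in which the markers of no other class passed. All 11 macrophage or monocyte markers were detected in both groups, as they were in every cluster, so detection does not test the label. Their sum was 18886 CPM in control and 19046 CPM in telmisartan cells, CPM being UMIs scaled to a common total, with Lyz2 as the most abundant. Median depth in this class was 8970 UMIs per cell in control and 6462 in telmisartan, so levels are given as CPM, from UMIs added up within each class and pool.

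Macrophage-like cells were divided into 6 states, clustered without the 9 genes or the genes of the related lists among the variable genes. State 1 was led by Cxcl9, Serpina3g, Ccl24, Batf2 and Ly6i. State 2 was led by Dcstamp, Ereg, 2010005H15Rik, Ramp3 and Areg, and state 3 by Gas6, Atp6v0d2, Cbr2, Ms4a14 and Ccl8. The interferon-induced genes Ifit3, Ifit1bl1, Ifit2, Ifit1 and Cmpk2 led state 4. Serpinb2, Il6, Ptges, Hmox1 and Cxcl3 led state 5, and the cell-cycle genes Ccna2, Hmmr, Birc5, Top2a and Prr11 led state 6. State 1 held the most control cells (1430 of 4053) and state 2 the most telmisartan cells (1099 of 3999). State 4 was shallow, its control cells having a median of 2419.5 UMIs and its telmisartan cells 2530. The cluster of all cells that it came from had a median of 0.355 times that of the groups its cells belonged to, 0.280 times for its control cells and 0.392 times for its telmisartan cells, and values without that cluster are given where a call by size differed.

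Across macrophage-like cells, 8 of the 9 genes had at least 100 UMIs and were compared by size, a log2 ratio of telmisartan over control of at least 0.5 in either direction. Of these, 0 were lower by that size, where 3.78% of 11073 genes with as many UMIs were. Gpnmb was the 1 gene higher by that size, where 6.25% of all genes were. The median log2 ratio of the 8 genes was -0.04 and that of all genes was -0.05, but the genes went both ways, so the median does not describe them as a group. Mertk, Axl and Msr1 were lower, Pros1, Trem2 and Gpnmb were higher, with Pros1 and Trem2 turning below 0 without scaling to depth, and Gas6 and Stab1 had intervals that reached 0.

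**Figure D1:**
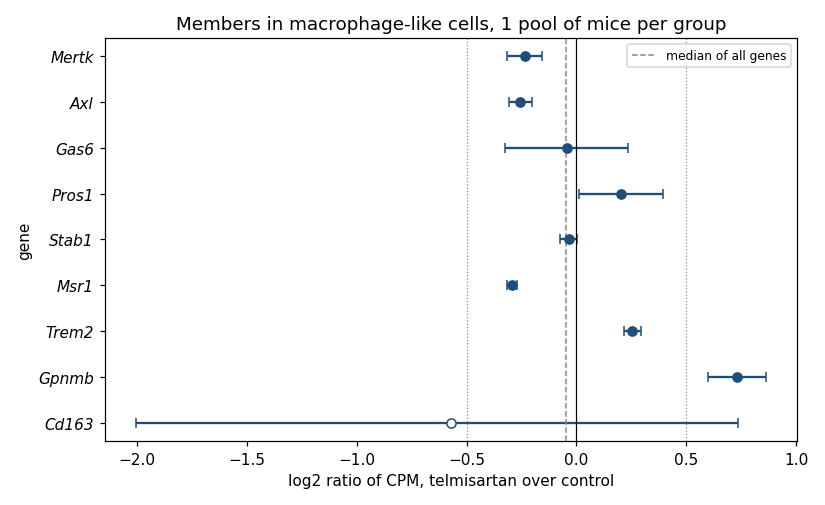
Log2 ratio of CPM, telmisartan over control, of each of the 9 genes in macrophage-like cells, with the 95% counting interval as a bar. The dashed line is the median of all genes and the dotted lines mark the size of 0.5. The open point is Cd163, which had under 100 UMIs. Gpnmb is the only filled point beyond a dotted line, and its value falls below that size when states have the same weights in both groups.

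Mertk encodes a receptor tyrosine kinase through which macrophages engulf dying cells. It had 3337 UMIs in control and 2107 in telmisartan macrophage-like cells, or 87.5 and 74.3 CPM, a log2 ratio of -0.24 (-0.31 to -0.16). A Mertk UMI was found in 34.8% of control and 28.3% of telmisartan cells, and after each cell was thinned to 1000 UMIs the shares were 7.26% and 6.09%. The thinned intervals, 6.48% to 8.11% and 5.36% to 6.88%, overlapped. Thinning left out 45 control and 72 telmisartan cells with fewer UMIs. Shares of thinned cells here and below are from 1 random draw each; over 200 draws these Mertk shares had means of 7.41% and 6.43%.

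Mertk was highest in state 3, at 177 CPM over both groups, 2.79 times the next state. States 4, 6, 1 and 2 followed between 63.4 and 57.9 CPM, with intervals that overlapped from each to the next, and state 5 was lowest at 41.9 CPM. Within state 3 the level was 198 CPM in control and 152 CPM in telmisartan, a log2 ratio of -0.39 (-0.51 to -0.27). State 5 had the lowest ratio, -0.60 (-1.01 to -0.18), from 51.4 to 34.0 CPM, where 5.1% of all genes were lower by at least 0.5. Mertk was lower in 5 of 6 states, and in 4 of them the interval lay below 0. In states 2 and 4 the ratio was -0.01 and 0.00, with intervals on both sides of 0. With each cell thinned to 1000 UMIs, the value averaged over all random draws was lower in 4 of 6 states, at -0.42 in state 3 and -0.43 in state 5, which is under the size there. State 5 was past the size, at -0.53, when averaged over all draws of 500 UMIs and as a mean over cells of each cell's share of UMIs. Here and below, a value averaged over all draws is that same mean, over the cells deep enough to be thinned. Values averaged over all draws of 1000 and of 500 UMIs differ only by the cells left out, and are not separate checks. Thinning keeps few Mertk UMIs, so a single draw varies. At 1000 UMIs, the middle 95% of 200 draws ran from -0.75 to -0.09 in state 3, with 199 below 0. In state 5 it ran from -1.31 to 0.31.

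Axl encodes a TAM receptor that is known to be induced by interferon and other inflammatory signals. It had 198 CPM in control and 166 CPM in telmisartan macrophage-like cells, a log2 ratio of -0.26 (-0.31 to -0.20). With each state given the same weight in both groups, its share of all macrophage-like cells, the ratio was -0.05. State 1, which had the highest Axl level (287 CPM), gave 56.2% of the control Axl UMIs and 21.4% of those of telmisartan, while its share of macrophage-like cells was 35.3% and 10.7%.

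The order of states differed between the TAM receptors. Axl followed in states 6, 2 and 4 at 189, 180 and 165 CPM, with overlapping intervals between neighbours, then state 3 at 111 CPM and state 5 at 25.9 CPM. States 6, 2 and 4 came in a different order in each group. Mertk was thus highest in a state where Axl was next to lowest. Between groups, Axl was higher in state 2, from 149 to 205 CPM (log2 ratio 0.46, 0.35 to 0.57), and lower in state 4, from 206 to 143 CPM (-0.53, -0.76 to -0.30), where 6.48% of all genes were lower by at least 0.5. At equal depth the state 4 difference was under that size. Averaged over all draws it was -0.28 at 1000 UMIs per cell and -0.20 at 500, whereas state 2 gave 0.40 at both. In state 3 the level was 111 CPM in both groups. The third TAM receptor, Tyro3, had 5 UMIs in control and 4 in telmisartan macrophage-like cells, too few to compare.

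Gas6, the ligand of all TAM receptors, had 258 UMIs in control and 186 in telmisartan macrophage-like cells, or 6.76 and 6.56 CPM. The log2 ratio was -0.04 (-0.32 to 0.23), so a difference was not detectable at this depth. Its UMIs lay mostly in state 3, which gave 83.3% of them in control and 81.2% in telmisartan. The level there was 27.3 CPM over both groups, 4.93 times that of state 6 at 5.53 CPM, and each of the other states had 12 UMIs or fewer. Within state 3 Gas6 was 29.8 CPM in control and 24.3 CPM in telmisartan, a log2 ratio of -0.30 (-0.61 to 0.01). Mertk and Gas6 were thus highest in the same state.

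Pros1 encodes protein S, an anticoagulant plasma protein that also bridges phosphatidylserine to TAM receptors. It had 494 and 423 UMIs, or 12.9 CPM in control and 14.9 CPM in telmisartan, with a log2 ratio of 0.20 (0.01 to 0.39) that turned to -0.20 when UMIs per cell were compared without scaling to depth. Under that scaling the median of all genes also moved, from -0.05 to -0.45, and relative to it Pros1 was at 0.25. Its levels were flatter over states than those of Gas6: 18.2 CPM in state 6, 17.7 CPM in state 3 and 14.1 CPM in state 1 overlapped from each to the next, and state 5 was lowest at 5.51 CPM. In state 2 Pros1 was 7.17 CPM in control and 13.4 CPM in telmisartan, a log2 ratio of 0.90 (0.42 to 1.40). At 1000 UMIs per cell the value averaged over all draws was 0.79, but a single draw holds too few Pros1 UMIs there to show it: 1 at that depth gave 0.32 (-0.99 to 1.75). State 5 had 3 UMIs in control and 24 in telmisartan, a log2 ratio of 2.73 with an interval from 1.01 to 5.11 that reflects how few they were.

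**Figure D2:**
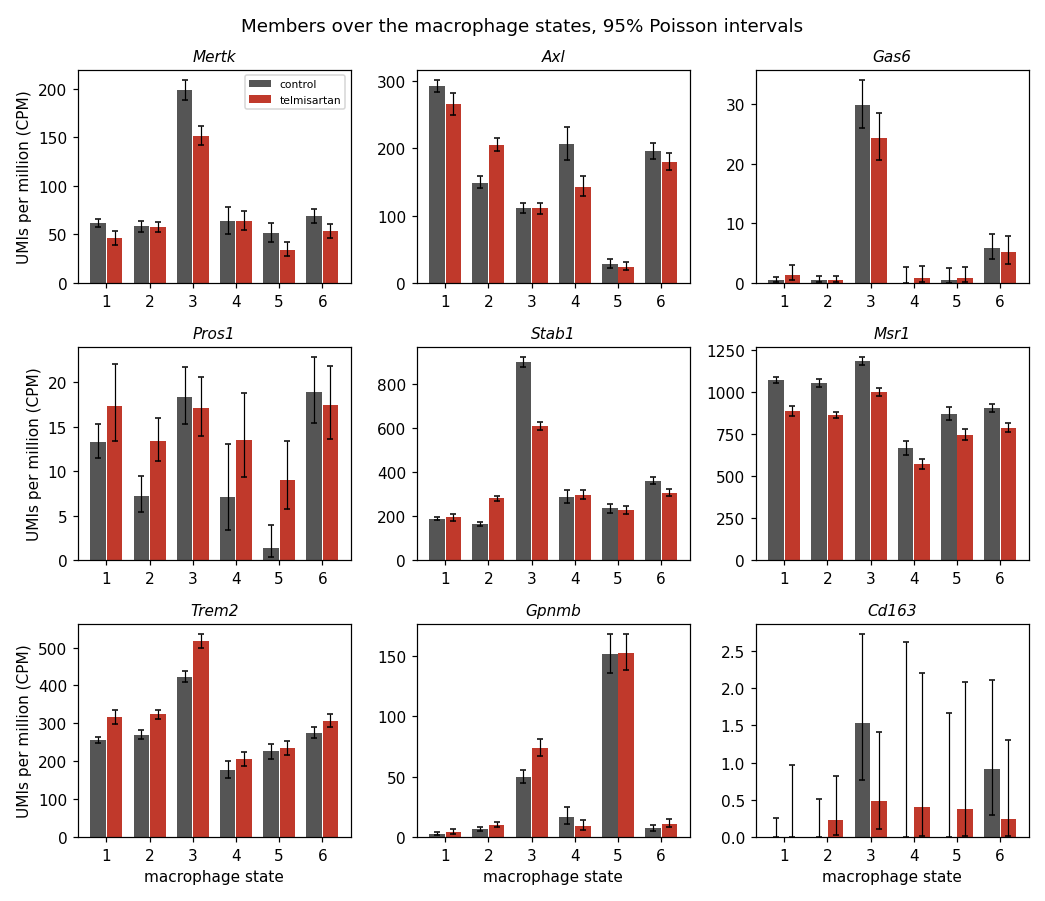
Level of each of the 9 genes in the 6 macrophage states, in CPM, for control (grey) and telmisartan (red) cells, with 95% Poisson intervals as bars and an axis of its own for each gene. Mertk, Gas6, Stab1, Msr1 and Trem2 are highest in state 3, Axl in state 1 and Gpnmb in state 5.

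Stab1 encodes stabilin-1, a scavenger receptor that binds phosphatidylserine and acetylated lipoproteins. Over macrophage-like cells it was 348 CPM in control and 339 CPM in telmisartan, a log2 ratio of -0.03 (-0.07 to 0.00). Within states the differences were opposite. In state 3, where Stab1 was highest (764 CPM over both groups, 2.28 times the next state), the level was 899 CPM in control and 607 CPM in telmisartan, a log2 ratio of -0.57 (-0.62 to -0.51). In state 2 it was 162 CPM in control and 279 CPM in telmisartan, a log2 ratio of 0.78 (0.68 to 0.89). These intervals were far apart, although with 1 pool per group the difference between the states was not tested.

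At 1000 UMIs per cell the values averaged over all draws were 0.75 in state 2 and -0.63 in state 3. The other states showed smaller Stab1 differences by CPM. In state 6 it was 359 CPM in control and 304 CPM in telmisartan (-0.24, -0.34 to -0.13), or -0.30 averaged over all draws at 1000 UMIs, where single draws varied (-0.60 to 0.02 for the middle 95% of 200), while states 1, 4 and 5 had log2 ratios of 0.05, 0.04 and -0.06 with intervals on both sides of 0. State 2 was also where the most genes were higher: Pros1, Stab1 and Gpnmb were 3 of 7 of the genes compared there, beside 9.6% of 8332 genes, and the median of all genes there was 0.06. In state 3, Stab1 was the 1 of 8 that was lower by at least 0.5 (6.85% of all genes) and Gpnmb the 1 that was higher (5.5% of all genes). Of the resident macrophage markers, 4 of 5 were detected in state 2 in each group, Vsig4 being at 0 in both, and their sum was 4.41 CPM in control and 17.6 CPM in telmisartan. Folr2 was the most abundant of them, at 3.58 and 16.3 CPM. In state 3 the same list was 156 CPM in control and 167 CPM in telmisartan, with all 5 detected. The part of cells with these markers in the Stab1 difference was not tested.

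In the remaining comparisons within states the count of genes past 0.5 was 0. In state 1 it was 0 of 6 in either direction, beside 5.32% of all genes lower and 4.44% higher. In state 2, 0 of 7 were lower (4.46% of all genes). The counts of higher genes were 0 of 5 in state 4 (7.84% of all genes) and 0 of 6 in state 5 (9.47%), and in state 6 it was 0 of 6 in either direction (4.49% lower and 4.11% higher).

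Msr1 encodes the class A scavenger receptor, which takes up oxidised and acetylated lipoproteins. It was 1037 CPM in control and 847 CPM in telmisartan macrophage-like cells, a log2 ratio of -0.29 (-0.32 to -0.27). Msr1 was lower in 6 of 6 states, with log2 ratios from -0.29 in state 2 to -0.20 in state 6, and each of the 6 intervals lay below 0. At 1000 UMIs per cell it was also lower in 6 of 6 averaged over all draws, from -0.30 in state 2 to -0.07 in state 4, and state 4 was at -0.02 at 500 UMIs, with 85 of 200 draws above 0. State 3 was highest at 1097 CPM, followed by states 1, 2, 6 and 5 at 1030, 949, 854 and 802 CPM, and state 4 was lowest at 602 CPM, over both groups. The order was the same within each group, but there states 1 and 2 overlapped, as did states 6 and 5. The range from highest to lowest state was narrow beside that of Mertk or Gas6. At 1000 UMIs per cell, 56.4% of control cells (54.8% to 57.9%) and 48.9% of telmisartan cells (47.4% to 50.5%) had an Msr1 UMI, shares that did not overlap; before thinning they were 90.7% and 84.4%.

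Cd163, the receptor for haptoglobin and haemoglobin complexes that is often used to mark resident and alternatively activated macrophages, was close to the limit of detection. It had 16 UMIs in 4053 control cells and 8 in 3999 telmisartan cells, or 0.419 and 0.282 CPM, and the log2 ratio of -0.57 had an interval from -2.00 to 0.74. State 3 held 11 of the 16 and 3 of the 8. In state 1, with 0 UMIs in 1857 cells, a count of 0 allows up to 0.162% of cells with a UMI, which is 3 counts over the number of cells.

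Trem2 encodes a receptor for lipids and phosphatidylserine that signals through Tyrobp and marks lipid-associated macrophages. It was 288 CPM in control and 344 CPM in telmisartan macrophage-like cells, a log2 ratio of 0.25 (0.21 to 0.29) that became -0.15 for UMIs per cell without scaling and 0.30 relative to the median of all genes under that scaling. Trem2 was higher in 6 of 6 states, with log2 ratios from 0.06 in state 5 to 0.31 in state 1, and in 4 of them the interval lay above 0. It was also higher in 6 of 6 averaged over all draws at 1000 or 500 UMIs per cell. These are nearly the same mean over cells, not separate checks. The ratio was lowest in state 5, at 0.09 and 0.08, where 63 and 73 of 200 single draws were below 0. In state 3, where the Trem2 level was highest, it went from 423 to 518 CPM (0.29, 0.22 to 0.36). States 2, 6 and 1 followed at 299, 289 and 269 CPM over both groups, in an order that differed between control and telmisartan cells, and then state 5 and state 4, at 195 CPM. Trem2 and Msr1 were thus both highest in state 3 and lowest in state 4, with opposite differences between groups.

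Gpnmb encodes a transmembrane glycoprotein of lysosomes and phagosomes that is known to rise in lipid-laden macrophages. It had 845 UMIs in control and 1041 in telmisartan, or 22.1 and 36.7 CPM, a log2 ratio of 0.73 (0.60 to 0.86). The difference was smaller under other weightings of the same cells. With the same state weights in both groups it was 0.20, and for UMIs per cell without scaling it was 0.32. As a mean over cells of each cell's share of UMIs it was 0.28. Averaged over all draws of 1000 or 500 UMIs, nearly that same mean, it was 0.31 or 0.28. Each was under the size of 0.5. At 1000 UMIs, 19 of 200 draws were past that size, as was the draw used for the planned comparison, at 0.60. Leaving out the cluster of the lowest UMI counts gave 0.81. Leaving out both clusters with medians under 4000 UMIs, an alternative chosen after seeing the data, gave 0.99. The other of these clusters was led by Serpinb2, Hmox1 and Il6, genes that also led state 5, and had Gpnmb among its leading genes. Leaving it out was therefore not a filter by depth alone.

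The Gpnmb level rested on few cells. It was 152 CPM in state 5, 2.49 times state 3 at 61.1 CPM, and between 11.7 CPM in state 4 and 2.94 CPM in state 1 elsewhere. State 3 gave 42.7% of the Gpnmb UMIs in control and 44.1% in telmisartan. State 5 gave 39.8% and 39.3%, and held 10.3% of control and 14.2% of telmisartan macrophage-like cells. Within state 5 the level was nearly equal, 151 CPM in control and 153 CPM in telmisartan (log2 ratio 0.01, -0.20 to 0.23), although the values averaged over all draws were -0.37 at 1000 UMIs per cell and -0.45 at 500, so it depends on how cells are weighted. In state 3 it went from 50.1 to 73.9 CPM (0.56, 0.36 to 0.76), and in state 2 from 6.48 to 9.90 CPM (0.61, 0.08 to 1.15). Averaged over all draws, states 3 and 2 gave 0.56 and 0.63 at 1000 UMIs. Single draws varied, with 0.02 to 1.02 in state 3 and -0.69 to 2.13 in state 2 for the middle 95% of 200. Of 8052 macrophage-like cells, 8.21% had a Gpnmb UMI, and in state 5 Axl, the gene opposite to it over states, was at its lowest.

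**Figure D3:**
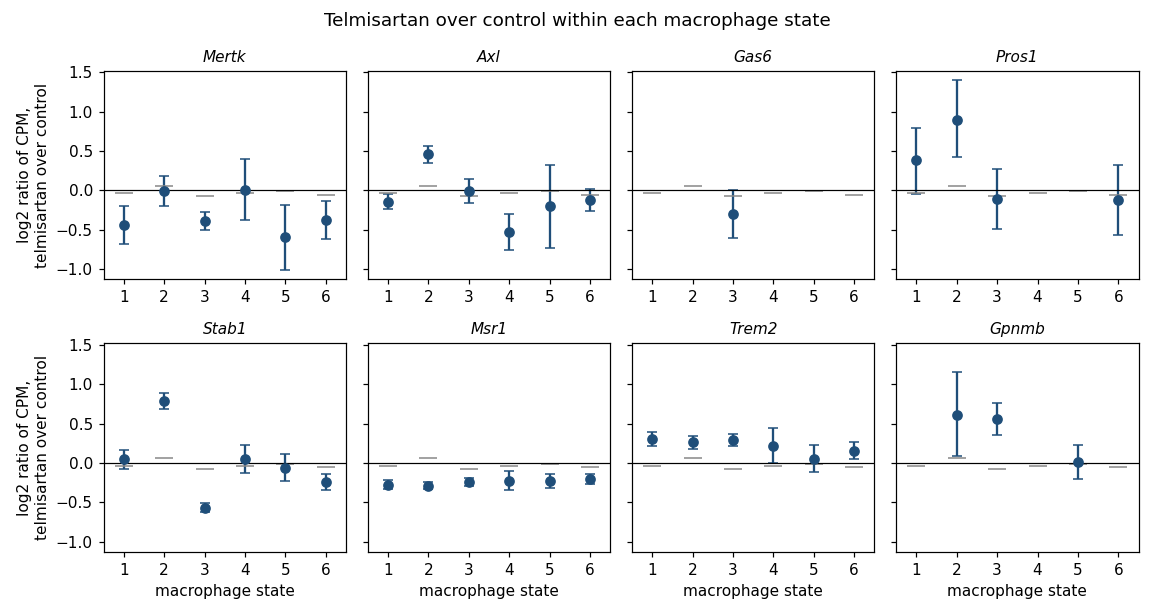
Log2 ratio of CPM, telmisartan over control, within each macrophage state for the 8 genes with at least 100 UMIs in at least 1 state; points are shown where the gene had that many, bars are 95% counting intervals and grey dashes mark the median of all genes in that state. Msr1 lies below 0 and Trem2 above 0 in all 6 states, while Stab1 is at 0.78 in state 2 and -0.57 in state 3.

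Of the 9 genes, 7 had their highest CPM in macrophage-like cells, the exceptions being Axl and Gpnmb. For Mertk, Stab1, Msr1 and Trem2 the interval there lay above those of the other classes. For Gas6, Pros1 and Cd163 the rank is nominal, since 0 UMIs in neutrophil-like cells allow up to 21.7 CPM (3 counts), more than their 6.68, 13.8 and 0.361 CPM in macrophage-like cells. Axl was 281 CPM in dendritic-like cells (266 to 296) and 185 CPM in macrophage-like cells (181 to 188). Between groups the dendritic-like level was 303 CPM in control and 250 CPM in telmisartan, a log2 ratio of -0.28 (-0.44 to -0.12), close to that in macrophage-like cells. Gpnmb was nominally highest in neutrophil-like cells, at 86.7 CPM, but on 12 UMIs in 2 of 71 cells. At 1000 UMIs per cell, 20% of dendritic-like cells and 13.7% of macrophage-like cells had an Axl UMI.

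The other receptors were lower in dendritic-like cells. Mertk was 5.82 CPM there and Stab1 25.7 CPM, against 81.9 and 344 CPM in macrophage-like cells. Trem2 was 47.6 CPM against 312 CPM and Msr1 84.3 CPM against 956 CPM. Gas6 had 2 UMIs and Cd163 had 0 in 660 dendritic-like cells, where 0 allows up to 0.455% of cells with a UMI. Among the 4 genes with at least 100 UMIs in dendritic-like cells, Msr1 was the 1 lower by at least 0.5, from 109 to 49.3 CPM (-1.15, -1.48 to -0.82), where 5.69% of 5835 genes were, and 0 of 4 were higher (5.48%). The macrophage or monocyte markers summed to 3991 CPM in control and 3443 CPM in telmisartan dendritic-like cells, all 11 detected and Lyz2 the most abundant, and their part in this difference was not tested.

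T cells and neutrophils should lack most of these genes. The source of the UMIs found there, such as free RNA in the capture, was not tested. Median depths were 3912 and 2960.5 UMIs in T-like cells of control and telmisartan, and 1714 and 1796 UMIs in neutrophil-like cells. In T-like cells Msr1 was 338 CPM in control and 114 CPM in telmisartan, Stab1 148 and 77.1 CPM, Trem2 98.2 and 61.6 CPM, and Mertk 43.4 and 15.4 CPM. The log2 ratio was -1.56 (-2.05 to -1.10) for Msr1, -0.95 (-1.58 to -0.33) for Stab1, -1.49 (-2.99 to -0.18) for Mertk and -0.67 (-1.41 to 0.05) for Trem2, the last of which reaches 0. These levels rest on few cells. The 148 Msr1 UMIs of control lay in 15 of 72 cells, and the share of cells with an Msr1 UMI was 20.8% (12.2% to 32.0%) in control and 18.4% (11.8% to 26.8%) in telmisartan; for Stab1 and for Trem2 it was 22.2% and 14.0%, and for Mertk 13.9% and 3.51%, each with overlapping intervals and at unequal depth. Axl was 64.0 and 59.4 CPM there. In neutrophil-like cells Stab1 was 154 CPM in control and 21.2 CPM in telmisartan, on 14 UMIs and 1 UMI (-2.86, -8.26 to -0.14), Msr1 132 and 42.3 CPM (-1.64, -4.84 to 0.53) and Trem2 87.8 and 21.2 CPM (-2.05, -7.53 to 0.85). A difference in background between the pools was not tested. The macrophage or monocyte markers were also lower, at 6575 CPM in control and 4366 CPM in telmisartan T-like cells, with all 11 detected and Lyz2 the most abundant, and the part of carried-over macrophage RNA or of remaining doublets was not tested. At 1000 UMIs per cell, 6.98% of T-like cells had an Msr1 UMI and 1.74% a Mertk UMI, below the 52.7% and 6.68% of macrophage-like cells. Pros1 could not be compared in this way, since its T-like share at that depth was 2 of 172 cells (0.14% to 4.14%), beside 1.15% of macrophage-like cells. Over all UMIs it was 7.85 CPM in T-like cells, on 7 UMIs, and 13.8 CPM in macrophage-like cells.

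Over all macrophage-like cells, those with a Mertk UMI held each other member but Cd163, which was not compared in this way, more often than cells without one, and they also held more UMIs in all. Within states this did not hold for Gpnmb in state 3 (17.5% with Mertk and 18.6% without) and state 1 (2.16% and 2.23%), or for Axl in state 6 (69.0% and 73.4%). A Gas6 UMI was found in 7.83% of the 2542 macrophage-like cells with Mertk and in 1.51% of those without it, at median depths of 10052.5 and 6372 UMIs. Within state 3 alone the shares were 17.2% and 10.9%, at medians of 9571.5 and 7299 UMIs. Gpnmb went the other way with Axl. It was found in 4.64% of macrophage-like cells with an Axl UMI and in 11.8% of the others, although cells with Axl were deeper, at 10044 against 5133.5 UMIs. The same direction was seen within state 3 (12.3% and 22.4%), state 6 (3.98% and 8.17%), state 2 (2.56% and 4.64%) and state 1 (2.06% and 2.62%), but not in state 5, at 23.5% and 23.2%. In state 3, 15.6% of cells with Stab1 and 39.3% of cells without it had a Gpnmb UMI, at medians of 9130 and 6042 UMIs. The shares went the other way in state 1 (2.88% and 0.935%), state 2 (3.72% and 2.72%) and state 6 (5.35% and 4.46%). In state 5 they were 22.0% and 24.5%, and over all macrophage-like cells 8.24% and 8.14%.

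Over 16 points, which were the 6 states, dendritic-like and T-like cells of each group, each with at least 50 cells, the level of each gene was compared with that of 10004 genes by Pearson's r of log2(CPM + 1). The points share cells of 1 capture, and their depths differ, so r is a description. They include classes in which Mertk, Stab1, Msr1 and Trem2 were far lower. For these genes r thus covers the contrast between macrophage-like and other cells as well as that between states. It was not computed over the states alone. Mertk had r of 0.96 with Adgre1 and with Abcc3, and among the members was most like Stab1 (0.97). Axl was most like Spint1, Ptpn6 and Ppfia4, each at 0.95, and had r of -0.13 with Mertk and -0.84 with Gpnmb. Gas6 was most like Gna12, Timp2 and Hpgds, and Pros1 like Txlna, Marc2 and Psmd12. Stab1 was close to Tmem37 and Ccl7. Msr1 was most like Lyz2, Gm5150 and Spp1, and Trem2 like Plod1, Gm5150 and Lyz2, with r of 0.95 between Msr1 and Trem2. Gpnmb was most like Npy (0.95), Rabac1 and Impdh1 (0.91 each).

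Around the 9 genes, 88 other genes of related lists were compared in macrophage-like cells: 4 were lower and 7 higher by at least 0.5, with a median log2 ratio of 0.02, beside 3.78% and 6.25% of all genes and their median of -0.05. With the same state weights in both groups, Apoe (0.97) and Il10 (1.77) were the 2 still higher by that size. Cd36 was then at 0.47, Siglec1 at 0.44, Ppard at 0.41, Fabp4 at 0.39 and Hmox1 at 0.28. Without scaling for depth Apoe and Il10 were again the 2 past it. Other settings also ended calls. Cd36 was at 0.42 as a mean over cells and Fabp4 at 0.40 without doublet removal. Ppard was at 0.40 and Siglec1 at 0.37 in 1 draw of 1000 UMIs. Without both clusters of low UMI counts, Fabp4 was at 0.39 and Hmox1 at 0.18, but 1 of these clusters had Hmox1 among its leading genes. Averaged over all draws of 1000 UMIs, Ppard (0.54) and Siglec1 (0.59) stayed past the size, and Cd36 was under it at 0.45. Of the lower ones, with the same state weights in both groups, Lpl was at -0.44, and Spp1 (-0.79), Itgax (-0.62) and Mrc1 (-0.52) stayed past the size. Mrc1 was close to it: -0.48 without the cluster of the lowest UMI counts, and -0.48 with at most 10% mitochondrial UMIs. It was at -0.44 without both clusters of low UMI counts and at -0.47 for UMIs per cell relative to the median of all genes. The list of TAM receptors and ligands, whose 4 compared genes are members and not among the 88, had a median of -0.14. Other phosphatidylserine receptors and bridging proteins had a median of 0.19 over 12 genes, with 1 higher, the fatty acid and apoptotic cell receptor Cd36, from 68.5 to 113 CPM (0.73, 0.65 to 0.80). The opsonin C1q genes had a median of -0.06 over 3 genes and the engulfment machinery 0.01 over 14, with 0 past the size in either direction. In that machinery 7 genes were lower and 7 higher, with Rubcn at -0.40, Dock1 at -0.33, Vav3 at 0.27 and Rac1 at -0.23.

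Genes of lipid efflux after engulfment had a median of 0.20 over 14 genes, with 2 higher. These were Apoe, a carrier of cholesterol, from 1161 to 2555 CPM (1.14, 1.12 to 1.16), and the nuclear receptor Ppard, from 33.7 to 50.6 CPM (0.59, 0.48 to 0.70). The list of other scavenger receptors had a median of 0.22 over 10 genes, with Cd36 higher and the mannose receptor Mrc1 lower, from 460 to 323 CPM (-0.51, -0.55 to -0.47). The genes known beside Trem2 in lipid-associated macrophages were divided. Their median was -0.04 over 16 genes, with Apoe and the fatty acid binding protein Fabp4 higher and 3 lower: the integrin Itgax (251 to 144 CPM, -0.80), the lipase Lpl (149 to 91.2 CPM, -0.71) and osteopontin, Spp1 (3526 to 2166 CPM, -0.70). By CPM, Trem2 was thus higher in the telmisartan pool while genes often listed beside it lay on both sides.

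The list drawn up for inhibitors of engulfment had a median of -0.03 over 8 genes. Its 1 higher gene was the sialic acid receptor Siglec1 (21.2 to 31.7 CPM, 0.58). Siglec1 is not established as an inhibitor, so no rise of an inhibitor is read from it. The list of sheddases that release Mertk, Axl or Trem2 from the cell surface, with their regulator Rhbdf2 (-0.17), had a median of -0.09 over 4 genes. Adam10 was at -0.40, from 186 to 141 CPM, and Adam17, known to cleave Mertk, at 0.01. Regulators known for these receptors had a median of 0.09 over 12 genes, with 2 higher: Il10, from 8.81 to 42.1 CPM (2.26, 2.08 to 2.44), and the haem oxygenase Hmox1, from 309 to 472 CPM (0.61, 0.57 to 0.65). Hmox1 is a leading gene of state 5, whose share of cells was larger in the telmisartan pool. The part of that share in the Hmox1 difference was not tested.

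Markers of other cell types in macrophage-like cells were low. T cell markers summed to 13.5 CPM in control and 15.3 CPM in telmisartan, with 9 of 9 detected in both and Trbc2 and Skap1 the most abundant. Dendritic cell markers summed to 14.3 and 16.9 CPM (8 of 8, Ccr7) and neutrophil markers to 33.6 and 30.9 CPM (6 of 6, Csf3r). Fibroblast markers summed to 7.89 and 14.0 CPM (5 of 5, with Col3a1 in control and Col1a1 in telmisartan), endothelial markers to 25.3 and 24.6 CPM (4 of 4, Pecam1), and tumor epithelial markers to 42 and 19 UMIs (3 of 4 in each, Epcam), with Krt18 at 0 in control and Krt8 in telmisartan. NK cell markers summed to 29 and 19 UMIs (3 of 3, Klrb1c), and mast cell markers to 0.157 and 0.141 CPM (2 of 3 in control, with Mcpt4 at 0, and 3 of 3 in telmisartan, Cpa3). The sum for resident macrophage markers was 45.0 and 60.5 CPM (5 of 5), nearly all of it Folr2. Their part in the results for the 9 genes was not tested.

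In the mouse genome build GRCm38, with GENCODE M21 gene models, all 9 are protein-coding genes on 7 chromosomes. Mertk lies at chr2:128698956-128802894 on the plus strand and Axl at chr7:25757273-25788705 on the minus strand. The ligand genes are Gas6 at chr8:13465374-13494490, minus strand, and Pros1 at chr16:62854307-62929346, plus strand. Stab1 lies at chr14:31139013-31168641 and Msr1 at chr8:39581685-39642673, both on the minus strand. Trem2 at chr17:48346401-48354147, Gpnmb at chr6:49036546-49070929 and Cd163 at chr6:124304656-124330527 are on the plus strand. Gas6 and Msr1 share a chromosome, as do Gpnmb and Cd163.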

How the data were processed

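Live CD45+ cells of both pools were measured in 1 BD Rhapsody capture, and the authors deposited a table of error-corrected UMI counts per gene and cell, made with the BD Rhapsody WTA pipeline on GRCm38, and a table of Sample Tag read counts. Of 20726 putative cells, those with at least 10 tag reads and 75% of them on 1 tag were assigned to a pool, and cells with 150 to 5000 genes and at most 20% mitochondrial UMIs were kept. The 942 cells with the highest Scrublet scores (scanpy 1.11.5, Python 3.11.15), as many as the rate of cells with both tags implies, were removed. Cells were clustered with Seurat 5.3.0 in R 4.3.3 at resolution 0.5, and macrophage-like cells at the lowest resolution of a grid that gave at least 6 states. Classes were named from marker lists, and 110 genes, the members and lists, stayed out of the variable genes. UMIs were summed per class and pool. Intervals are exact: Poisson for levels, Clopper-Pearson for shares and conditional binomial for ratios (scipy 1.17.1). They cover counting error only, and no p-value was computed. TMM factors came from edgeR 4.0.16. The ratio step was tested on simulated data. The text names the members, up to 4 genes per list with the largest absolute log2 ratio among those with at least 200 UMIs, the 3 genes most like each member, the 5 leading genes of each state and the marker genes; Fabp4 and Tyro3 were named after their values were seen. Some genes that these rules would name, and the B cell marker list, are not reported here. Members and lists were chosen with earlier results of these data known. Alternatives changed the tag share, filters, doublet removal, resolution, variable genes, scaling, thinning and weighting of states.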

Additional observations from a re-analysis of the deposited data

Results flagged for a closer look

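The Stab1 ratio of telmisartan over control went opposite ways in different cells. In state 2 the log2 ratio was 0.78, on 1174 UMIs in control and 2478 in telmisartan, and in state 3 it was -0.57, on 6477 and 3771 UMIs. In T-like cells, which should lack Stab1, it was -0.95 (-1.58 to -0.33), on 65 and 35 UMIs in 16 of 72 and 16 of 114 cells, shares of 22.2% and 14.0% whose intervals overlapped. With T-like cells thinned to 1000 UMIs it was below 0 in 183 of 200 random draws, on a mean of 8.3 and 6.8 UMIs. Both groups were 1 pool each, and the difference between these cells was not tested.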

How the results depend on the processing

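Over 18 alternatives to each of the 9 ratios in macrophage-like cells, 127 of 162 values stayed within the counting interval of the reported value. Of the others, 33 moved beyond it and 2 reversed. Among the 18 are a mean over cells and 2 averages over all thinned draws that nearly repeat it, so they are not 18 separate checks. A value counts as reversed where its sign is opposite to a reported value whose interval excludes 0. The 2 reversed values were Pros1 at -0.20 and Trem2 at -0.15 for UMIs per cell without scaling, where the median of all genes moved from -0.05 to -0.45. Of the values whose interval holds 0, Stab1 and Gas6 changed sign under 2 alternatives each and Cd163 under 1. Mertk, Axl and Msr1 were below 0 under each of the 18, Axl between -0.66 and -0.05, and Gpnmb was above 0 under each, between 0.20 and 0.99. Without scaling, 3 members were lower by at least 0.5 (Mertk, Axl and Msr1) and 0 higher, and 26 list genes were lower and 2 higher, where 42.73% of all genes were lower and 1.752% higher. Relative to the median of all genes under that scaling, an alternative chosen after seeing the data, 0 members were lower and 1 higher. The number of members higher was 0 in place of 1 as a mean over cells of each cell's share of UMIs. It was also 0 with cells thinned to 1000 or 500 UMIs averaged over all draws (added after seeing the data), nearly that same mean. With the same state weights in both groups it was 0, as at a size of 1. It stayed at 1 in the single draw of 1000 UMIs. With the same state weights in both groups, 2 list genes were higher (Apoe and Il10) in place of 7. In each case the cause was not tested. Within states, 190 values came from a mean over cells and thinning to 1000 or 500 UMIs, as 1 draw and averaged over all draws. Each setting was chosen after seeing the data. The mean over cells and the averages over all draws nearly repeat each other, so these values are not separate checks. Of the 190, 135 stayed within the interval, 49 moved beyond it and 6 reversed. These 6 came from single draws, made separately for each state and for the class, which keep few UMIs and differ from draw to draw: Mertk at 0.04 in state 3 and 0.10 in state 6 at 1000 UMIs and, at 500, Mertk at 0.03 in state 1, Axl at 0.56 and Msr1 at 0.04 in state 4 and Pros1 at -0.68 in state 2. Averaged over all draws, which nearly repeats the mean over cells, these 6 kept the reported direction. Other values, whose interval held 0, also changed sign, some as a mean over cells, such as Gpnmb at -0.45 and Stab1 at 0.09 in state 5. Stab1 kept its opposite directions in states 2 and 3 under each of these. Of 180 list medians 13 moved by over 0.1. The highest state of each member stayed so for 7 of 9 at a lower resolution (not Pros1 or Gpnmb), 8 at a higher one and 8 without doublet removal (not Pros1 in both). No paired analysis was possible because each group was 1 pool. Depth limits Cd163 in all states and Gas6 outside state 3, and with 1 pool per group no value separates treatment from differences between mice.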
